A study of Mus musculus with 18 samples.

Results

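This account covers the dependence of the 2 h ERK response on Med24, taken as the genotype by time interaction: the log2 change over 2 h of 4-hydroxytamoxifen (4OHT) in cells without Med24 minus the same change in cells with it. The rule takes every gene rather than a chosen set. Of 25897 genes in the table, 14128 had enough reads to be tested, and 12 of the 18 libraries of the series enter the difference. All libraries came from mouse embryonic stem cells of line E14tg2a, on a 129SV background, in which endogenous Med24 is knocked out. Every line also carries a tetracycline-regulated FLAG-Med24 cDNA and a cassette with cRAF-ErT2, a RAF kinase that 4OHT switches on, linked to the transactivator rtTA. Rescued cells (labelled WT) received 500 nM doxycycline, which drives the cDNA, and knockout cells (labelled KO) received none. Each genotype was sampled untreated (0 h) and after 2 h with 250 nM 4OHT, as clones A, B and C, so that each of the 4 groups holds 3 libraries. The p-values thus measure the spread between clones. Doxycycline and the presence of Med24 go together in every group and cannot be told apart. The cells were kept in serum and LIF with 2 µM Chir99021, an inhibitor of the kinase GSK3, and 24 h beforehand were moved into serum and LIF with 250 nM PD173074, an inhibitor of the FGF receptor. New RNA was marked with 5 mM ethynyl uridine during the last 15 min and purified by its label, so that the counts follow recent transcription more than the standing pool of RNA.

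Mediator is a large complex that carries signals from transcription factors at enhancers and promoters to RNA polymerase II, and Med24 belongs to its tail module, the part nearest to the activators. ERK, the kinase at the end of the RAF, MEK and ERK cascade, phosphorylates transcription factors such as the ternary complex factors that sit with SRF at immediate early genes. Those genes encode FOS, JUN and EGR factors, which act on a second set of genes, and phosphatases and Sprouty proteins, which damp the pathway. In mouse embryonic stem cells, FGF and ERK signalling lowers the naive pluripotency factors and readies the cells for differentiation.

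Library totals of the 4 groups lay between 6725228 and 9565699 counts, so that a gene with no read may still be present at up to 3 counts, which is 0.303 to 0.458 CPM (the count divided by the library total and set to a common scale). CPM values here are scaled by TMM, a factor for each library that evens out composition, and these limits cover counting error only. Knockout clone A at 2 h stood apart: 13 very abundant genes, among them Cdk8 and Gphn, held 34.2% of its counts, against 18% to 24% in the other 11 libraries. As a check of the stem cell label, all 14 general and all 24 naive pluripotency markers were detected, with summed levels of 2047 to 2784 and 2667 to 3919 CPM per library. Of markers of other cell types, 3 of 13 neural, 2 of 15 two-cell-like, 7 of 14 fibroblast and 16 of 20 primitive endoderm genes passed the filter on low counts. So did 13 of 14 trophectoderm genes, which summed to 188 to 490 CPM per library. Of gastrulation and mesoderm genes 10 of 17 passed, with sums of 70.2 to 144 CPM. Primitive endoderm genes, without the abundant Fgfr2, summed to 716 to 774 CPM in rescued and 892 to 943 CPM in knockout libraries at 0 h, and to 850 to 875 and 1058 to 1200 CPM at 2 h. Fibroblast genes summed to 68.1 to 76.1 CPM at 0 h, and at 2 h to 267 to 296 CPM in rescued and 127 to 147 CPM in knockout libraries. The 2-cell-like genes lay at 0 to 0.503 CPM in rescued and 1.58 to 4.49 CPM in knockout libraries, and the neural genes at 14.7 to 39.0 CPM in all. The part of such cells in the results was not tested. Med24 itself (GRCm38 chromosome 11, 98704591 to 98729435, minus strand) stood at 528, 602 and 515 CPM in rescued and at 39.5, 41.7 and 35.5 CPM in knockout cells at 0 h. The 2 h libraries held 1520, 1775 and 1610 CPM with the cDNA switched on and 49.2, 43.1 and 47.3 CPM without. Every knockout library lay below every rescued library, and its interaction of -1.33 ± 0.11 (log2, ± standard error here and for every interaction) follows the reads of the cDNA, which cannot be told apart from those of the locus.

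The interaction passed the test in 1866 of 14128 genes, or 13.2%, at an adjusted p under 0.05 (edgeR's quasi-likelihood test with Benjamini-Hochberg adjustment over all genes, 3 libraries per group). In 933 genes (6.6%) it was below 0, meaning that knockout cells raised the gene less, or lowered it more, than rescued cells did. In another 933 genes (6.6%) it was above 0. Sizes were unequal. Past a 2-fold difference there were 269 genes below 0 and 58 above, and past 4-fold 39 below and 7 above. The even split also rests on the scaling. With library size alone in place of TMM, the median interaction over all genes moved from -0.00866 to -0.134, and the calls became 532 below 0 and 57 above. Both responses themselves were broad: 4574 genes (32.4%) rose and 4780 (33.8%) fell in rescued cells, and 4446 (31.5%) rose and 4968 (35.2%) fell in knockout cells. The labels name no added standard RNA, so that every value is relative to the other genes of its library.

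**Figure D1:**
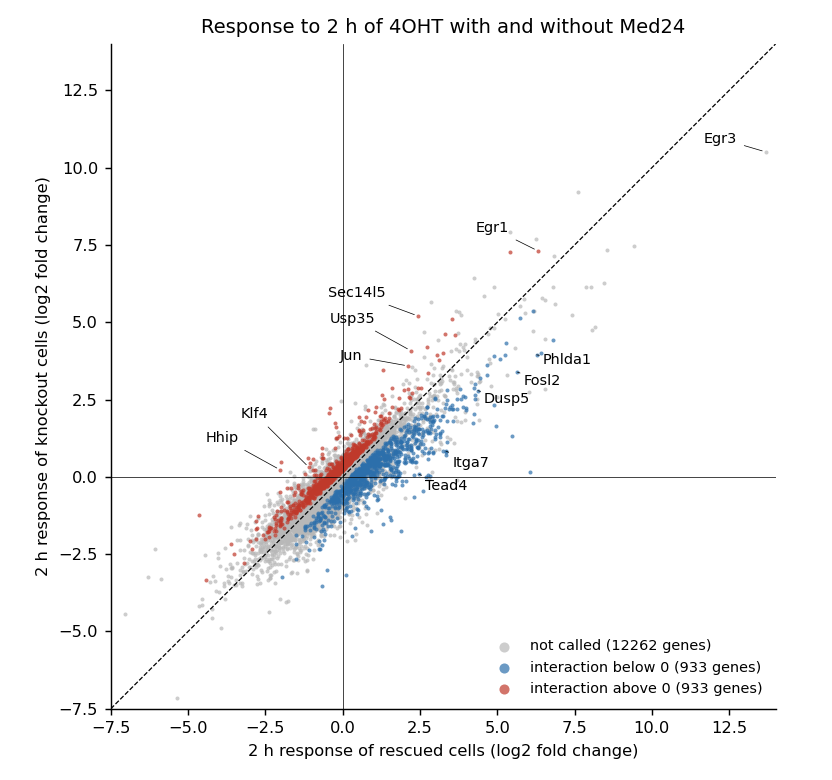
Each point is a gene, placed by its log2 fold change over 2 h of 4OHT in rescued cells (horizontal) and in knockout cells (vertical), with the dashed line where both are equal. The 933 genes with an interaction below 0 (blue) lie mostly to the right of the vertical axis and far from the line, and the 933 above 0 (red) lie along its upper edge on both sides of 0.

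Most genes below 0 were genes that rescued cells raised. Both genotypes raised 442 of them (47.4%), with a median log2 change of 1.64 in rescued and 0.80 in knockout cells. A further 215 (23.0%) rose in rescued cells and were not called in knockout cells (medians 0.70 and 0.03), and 67 (7.18%) rose in rescued and fell in knockout cells. The remainder comprised 97 genes that fell in both, with medians of -0.61 and -1.25, 110 that fell in knockout cells alone and 2 called in neither. Genes above 0 were spread more evenly over the classes. Of these, 298 (31.9%) rose in both genotypes, with medians of 0.45 and 0.80, and 264 (28.3%) fell in both, with medians of -1.09 and -0.63. Another 191 rose in knockout cells and were not called in rescued cells, 127 fell in rescued cells and were not called in knockout cells, and 53 (5.68%) fell in rescued and rose in knockout cells. These classes use the same libraries as the interaction and describe it.

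**Figure D2:**
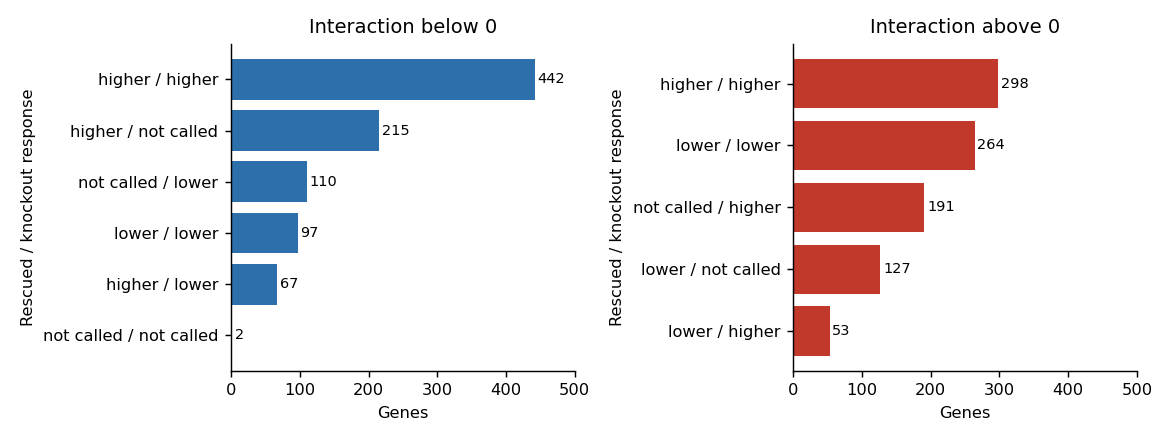
Bars count the genes with an interaction below 0 (left, blue) or above 0 (right, red) by the direction in which the rescued and then the knockout response was called. The longest bar on the left is the 442 genes raised in both genotypes, and on the right genes raised in both (298) and lowered in both (264) are nearly as many.

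The share of genes below 0 grew with the size of the rise up to 2 to 3 on the log2 scale and was smaller at 3 or more. Among 7932 genes whose response, averaged over both genotypes, lay between -0.5 and 0.5 on the log2 scale, 4.37% were below 0. The share was 12.8% of 1476 genes at 0.5 to 1, 28.4% of 676 at 1 to 2, 35.3% of 190 at 2 to 3 and 23.2% of 138 at 3 or more. The median interaction went from 0.0 at the centre to -0.18, -0.58 and -0.66 in the last 3 classes. On the falling side the shares were smaller: among 228 genes with an average between -3 and -2, 7.89% were above 0 and 1.32% below, with a median of 0.13. Over 5138 genes called higher on average, a line fitted with no intercept to the knockout change against the rescued change had a slope of 0.77, or of 0.94 when the inverse of the reverse slope is taken. Over 5536 genes called lower these were 0.90 and 1.06. Scatter in the value on the horizontal axis lowers such a slope, and the pair of slopes brackets its effect.

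**Figure D3:**
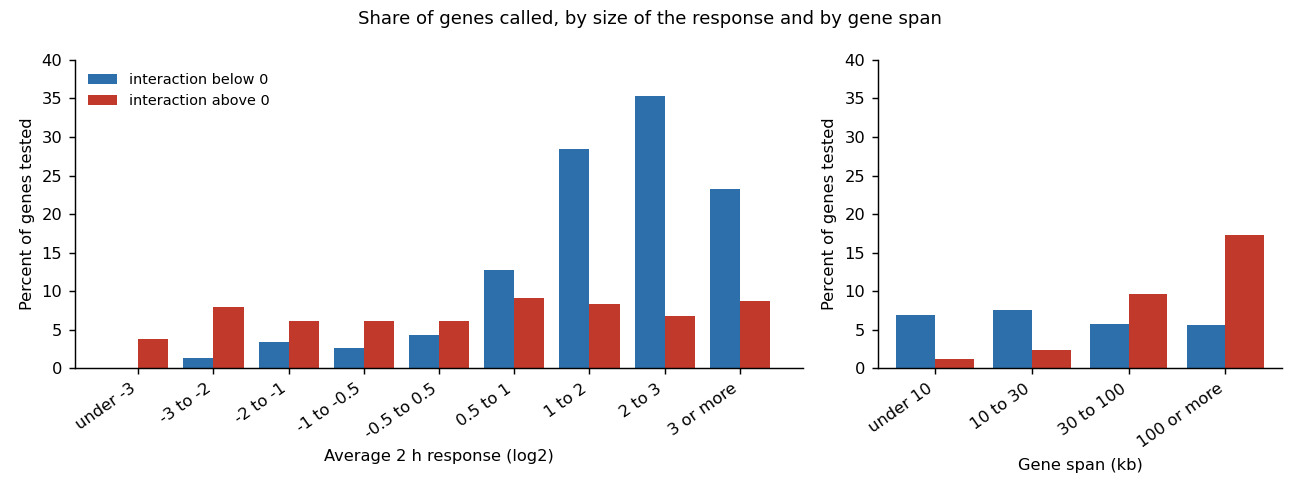
Bars give the percent of tested genes with an interaction below 0 (blue) and above 0 (red), by the average 2 h response of both genotypes (left) and by the span of the gene on the genome (right). Blue bars rise from 4.37% near no response to 35.3% at 2 to 3 on the log2 scale and stand at 23.2% at 3 or more. Red bars rise from 1.19% of genes under 10 kb to 17.3% of genes of 100 kb or more.

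For genes below 0 the median knockout minus rescued difference was 0.11 at 0 h and -0.59 at 2 h, and for genes above 0 it was -0.16 at 0 h and 0.21 at 2 h. Both differences share their libraries with the interaction and are given as its parts. The 8 h libraries are separate ones, though 1 fit, with its dispersion estimates, covers all 18 libraries. Levels also differed, with median CPM of 33.3 for genes below 0, 88.5 for genes above 0 and 23.4 for all genes tested. The part of level in the shares below was not tested. At 8 h, 545 of the 933 genes below 0 (58.4%) were lower in knockout cells, beside 17.1% of all genes tested, and 42 (4.5%) were higher, beside 14.5%. Those 545 genes made up 22.5% of all genes lower at 8 h. Of the genes above 0, 303 (32.5%) were higher at 8 h, which is 14.8% of all genes higher then, and 117 (12.5%) were lower. The 13 abundant genes held 36.4% and 43.9% of the counts in knockout clones B and C at 8 h. Leaving both out would keep clone A as the only knockout library at 8 h, with no spread of its own, so that no counts are given for it. The part of the abundant genes in the 8 h calls was not tested.

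Among called genes with a mean of at least 5 CPM over the 12 libraries and a named gene model, the 15 lowest and 15 highest interactions were taken for description. Tead4, a TEA-domain transcription factor best known for its role in the trophectoderm (GRCm38 chromosome 6, 128224288 to 128300823, minus strand), rose in rescued cells and was not called in knockout cells. Its levels were 58.2, 52.9 and 56.4 CPM in rescued clones A, B and C at 0 h and 315, 300.4 and 313 CPM at 2 h. Knockout clones stood at 77.4, 77.2 and 79.5 CPM at 0 h and at 70.2, 86.7 and 89.8 CPM at 2 h. Rescued libraries were the lowest at 0 h and the highest at 2 h, and knockout libraries at 0 and 2 h overlapped. The interaction was -2.38 ± 0.097 (adjusted p 3.08e-17), and at 8 h Tead4 was still lower in knockout cells, with a log2 difference of -0.46.

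Other genes with strong induction in rescued cells kept a part of it. Phlda1, an ERK-induced gene of the pleckstrin homology-like family, went from 3.63, 1.531 and 2.76 to 208, 206 and 211 CPM in rescued clones A, B and C. In knockout clones it went from 3.68, 2.93 and 4.25 to 53.1, 57.3 and 55.4 CPM. All 3 knockout libraries at 2 h lay between the 0 h libraries and the rescued 2 h libraries, with no overlap, and the interaction was -2.33 ± 0.23 (adjusted p 6.58e-09). Gprc5a, an orphan G protein-coupled receptor, was at 52.4, 48.6 and 50.2 CPM at 0 h and at 295, 308 and 337 CPM at 2 h in rescued cells. Its knockout levels were 47.2, 47.6 and 44.7 CPM and then 73.7, 76.2 and 86 CPM, a small rise that left every 2 h library below every rescued one (-1.88 ± 0.11, adjusted p 2.09e-13). Il6ra, which encodes the ligand-binding subunit of the interleukin 6 receptor, rose from 3.5, 3.62 and 3.36 to 64.2, 67.6 and 65.8 CPM with Med24. Without Med24 it rose from 4.37, 3.84 and 3.4 to 11, 17.6 and 18.3 CPM, so that the 2 h levels did not overlap (-2.19 ± 0.25, adjusted p 1.03e-07).

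The rest of the 15 lowest interactions ranged from -2.51 to -1.86. They included the laminin-binding integrin chain Itga7 (-2.51 ± 0.43), the receptor gene Gpr142 (-2.39 ± 0.72), Gsg1 (-2.42 ± 0.78), the FOS family gene Fosl2, the kinase gene Pak6 (-2.25 ± 0.28), the secreted-protein gene Oaf (-2.22 ± 0.40), the keratins Krt8 and Krt18, the secreted metalloprotease gene Adamts7 (-1.96 ± 0.21) and the LIM-domain cofactor gene Fhl2 (-1.86 ± 0.18). Adamts7 and Oaf rose in rescued cells and were not called in knockout cells. Gsg1 and Gpr142 were near the detection limit at 0 h, with 4 and 5 counts over the 3 rescued libraries, and their calls were lost under 6 and 4 of 21 alternative settings. Gsg1 was at -1.31 (adjusted p 0.535) without knockout clone A at 0 h and lost its call also without rescued clones B or C at 0 h, B at 2 h or knockout clone B at 2 h. Gpr142 lost its call without knockout B or C at 0 h or rescued C at 0 h (adjusted p 0.0703 to 0.135). The other 13 genes kept the call under each of the 21. Of these 15 genes, 12 were also lower in knockout cells at 8 h, and Gsg1, Krt8 and Krt18 were not called then.

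**Figure D4:**
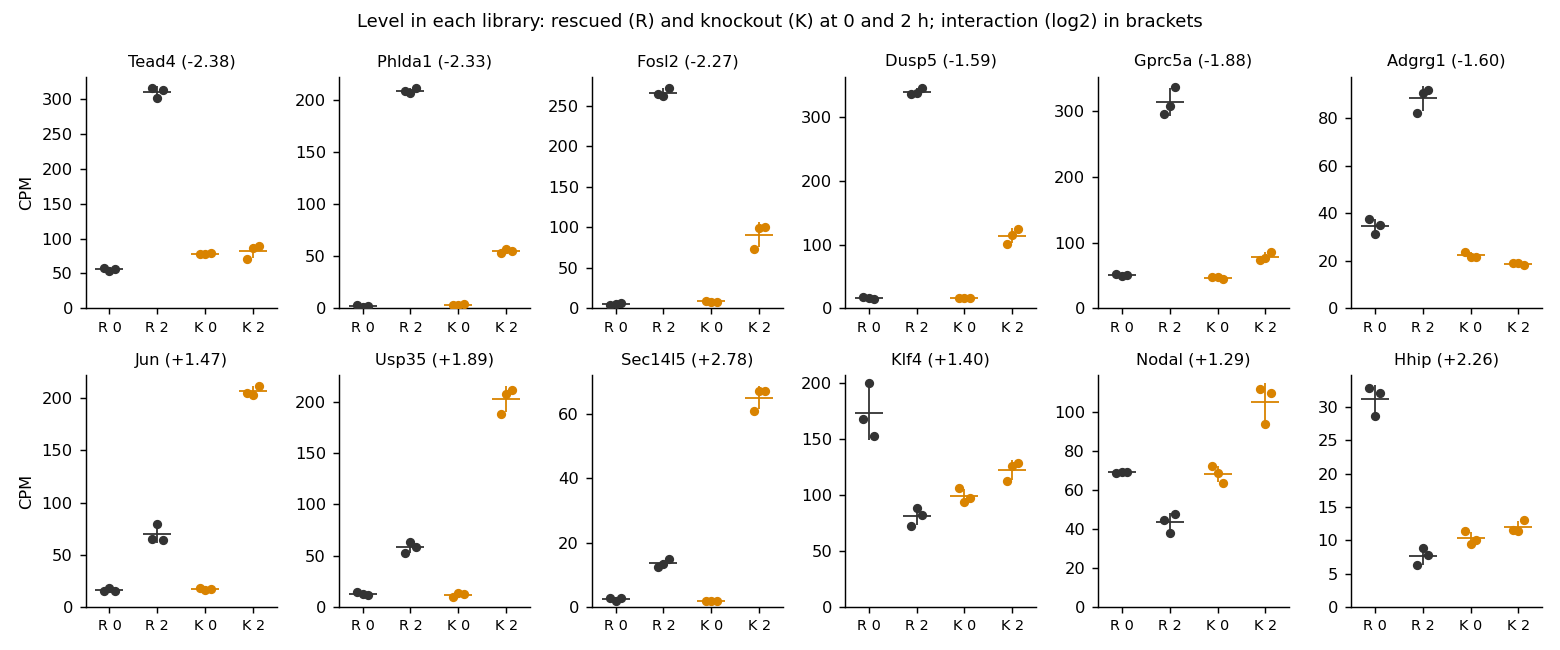
Points give the CPM of clones A, B and C for 12 genes in rescued (R, dark) and knockout (K, orange) cells at 0 and 2 h, with the mean and SD of each group, on linear axes from 0. In the upper row the rescued 2 h points stand above all others, and in the lower row Jun, Usp35 and Sec14l5 are highest in knockout cells at 2 h while Klf4, Nodal and Hhip fall in rescued cells alone.

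Of 34 immediate early genes tested, 18 had an interaction below 0, 3 were above 0, and the median was -0.61, beside -0.0087 over all genes. That is 61.8% called, beside 13.2% of all genes. The list also responded strongly, with median log2 changes of 1.87 in rescued and 1.53 in knockout cells. Among the 676 genes with an average response of 1 to 2, 28.4% were below 0 and 8.28% above. The part of response size in the share of the list was not tested. Among rescued cells 32 of the 34 rose, and among knockout cells 29 did. Fosl2, a FOS-family subunit of AP-1, stood at 4.38, 5.15 and 6.24 CPM in rescued cells at 0 h and at 264, 262 and 272 CPM at 2 h. In knockout cells it stood at 9.65, 8.58 and 8.02 CPM and 73.4, 99.3 and 100.4 CPM. The knockout 2 h libraries were high relative to 0 h but below every rescued one (-2.27 ± 0.20, adjusted p 8.66e-10). Junb, a JUN-family subunit, went from 40.05, 46.1 and 37.5 to 363, 405 and 381 CPM in rescued and from 42.5, 36 and 39.3 to 150.2, 157 and 153 CPM in knockout cells, again without overlap at 2 h (-1.25 ± 0.10). Fosl1 (-1.31 ± 0.15) and Fos (-0.97 ± 0.27) also had smaller rises, and the Fos call was lost without knockout clone C at 0 h, with a value of -0.68 (adjusted p 0.151). The interaction of Fosb was -1.03 ± 0.60 (adjusted p 0.29) and that of Jund 0.34 ± 0.15 (adjusted p 0.155), neither of them called.

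Jun was the opposite case within the same family. It stood at 15.3, 17.96 and 15.1 CPM in rescued clones at 0 h and at 65.4, 79.6 and 64.3 CPM at 2 h. Knockout clones went from 18.1, 16.6 and 16.9 to 205, 203 and 212 CPM. The genotypes overlapped at 0 h, and at 2 h all knockout libraries lay above all rescued ones (1.47 ± 0.13, adjusted p 6.99e-10). At 8 h the difference was turned round, with Jun lower in knockout cells (log2 difference -1.41).

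The EGR genes encode zinc finger factors of the immediate early response. Egr1 stood at 45.1, 47.2 and 41.5 CPM in rescued and 17.1, 14.7 and 17.5 CPM in knockout cells at 0 h. At 2 h it reached 3265, 3825 and 3485 CPM in rescued and 2622, 2526 and 2681 CPM in knockout cells. Knockout libraries were thus the lower ones at both times, and the interaction was above 0 (1.01 ± 0.16, adjusted p 2.35e-05) with a 0 h gap of -1.44 on the log2 scale. Egr3 had 0 counts over the rescued and 1 over the knockout libraries at 0 h, so that no fold is given, and it reached 182, 199 and 202 CPM in rescued and 62, 78.2 and 85.6 CPM in knockout cells at 2 h. Those 2 h levels did not overlap, and the interaction was not called (adjusted p 0.49). Egr2 was -1.09 ± 0.50 (adjusted p 0.164). Nab2, which encodes a corepressor of EGR factors, rose in both, from 9.14, 7.8 and 10.1 to 309, 366 and 366 CPM and from 9.77, 8.18 and 9.85 to 306, 314 and 343 CPM, with an interaction of -0.14 ± 0.18 (adjusted p 0.694).

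Further immediate early genes were below 0. Arc, an activity-regulated gene, rose from 17.9, 21.9 and 19.1 to 1257, 1559 and 1399 CPM in rescued and from 19.99, 14.4 and 19.3 to 688, 737 and 789.8 CPM in knockout cells (-0.79 ± 0.15). The 2 h levels did not overlap. The serum-response genes Ier2 (-0.74 ± 0.095) and Ier5l (-0.76 ± 0.17), the nuclear receptor gene Nr4a1 (-0.87 ± 0.09), the growth regulator Myc (-0.69 ± 0.16), the survival gene Mcl1 (-0.50 ± 0.067) and the small MAF factor gene Mafk (-0.64 ± 0.14) were below 0 as well. Mcl1 rose in rescued and fell in knockout cells. Atf3, a stress-responsive factor of the same bZIP class, was already higher in knockout cells at 0 h (6.78, 7.07 and 7.66 against 2, 0.557 and 1.32 CPM) and rose in rescued cells alone (-1.6 ± 0.37). Maff (-0.19 ± 0.16), Srf (0.08 ± 0.13) and Btg2 (-0.07 ± 0.14) were not called.

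Of 25 feedback and ETS-factor genes of the ERK pathway, 9 were below 0 and 3 above (48% called), with a median of -0.22. Their median log2 changes were 1.32 in rescued and 1.1 in knockout cells. Among the 676 genes with an average response of 1 to 2, 28.4% were below 0 and 8.28% above. Dusp5, a nuclear phosphatase of ERK, stood at 18.4, 16.1 and 14.7 and 336, 338 and 346 CPM in rescued cells at 0 and 2 h. The matching knockout levels were 16.1, 17.1 and 16.7 and 102, 116 and 125 CPM. The 0 h libraries overlapped and the 2 h libraries did not (-1.59 ± 0.12, adjusted p 8.85e-11). Dusp4 rose from 19, 15.2 and 17.4 to 173, 181 and 163 CPM with Med24 and from 28.9, 28.6 and 29.2 to 136, 136 and 135 CPM without it (-1.09 ± 0.11). Here knockout cells began higher, by 0.74 on the log2 scale, and ended lower.

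Dusp1, another phosphatase of MAP kinases, was at -0.88 ± 0.13, and Errfi1, which encodes an inhibitor of the EGF receptor, at -0.78 ± 0.1. The cytosolic ERK phosphatase gene Dusp6 was at -0.39 ± 0.10 (adjusted p 0.00842), a call lost without rescued clone C at 0 h (-0.28 (adjusted p 0.063)). Spry4 rose from 87.9, 73.9 and 74.2 to 1518, 1561 and 1532 CPM in rescued and from 32.2, 38.4 and 42.1 to 772, 813 and 865 CPM in knockout cells. Its knockout levels were lower at both times, without overlap, and the interaction was 0.16 ± 0.11 (adjusted p 0.408). The ETS factor genes Etv4 (-0.31 ± 0.15) and Etv5 (0.22 ± 0.08) and the feedback gene Spred1 (-0.13 ± 0.089) were not called. Etv1 was above 0 at 0.39 ± 0.13, a call that 12 of the 21 alternatives did not keep. Spry1 rose in rescued and fell in knockout cells (-0.74 ± 0.19), and the ETS gene Ets1 rose less in knockout cells (-0.81 ± 0.23), a call lost without knockout A at 0 h (adjusted p 0.0731).

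Of 13 trophectoderm genes tested, 5 were below 0 and none above (38.5% called). The median of -0.75 is the value of Cdx2, an uncalled gene near the detection limit. Krt8, a keratin of simple epithelia, stood at 6.38, 5.85 and 5.4 CPM in rescued cells at 0 h and at 46.4, 45 and 41.8 CPM at 2 h. In knockout cells it went from 18.4, 11 and 10.1 to 30.5, 19.5 and 20.3 CPM. Knockout libraries were the higher ones at 0 h and the lower ones at 2 h, without overlap at either time (-2.11 ± 0.27, adjusted p 8.17e-07). Its partner Krt18 followed the same course (-1.99 ± 0.32). Knockout clone A, in which the abundant genes took the largest share of counts at 2 h, was the highest knockout library of both keratins at both times. Without that clone at 2 h the values were -2.31 (adjusted p 3.59e-08) and -2.13 (adjusted p 1.25e-05), both still called. The GATA factor genes Gata2 (-1.16 ± 0.24) and Gata3 (-0.83 ± 0.15) fell in knockout cells and were not called in rescued cells. Cdx2, a master regulator of the lineage, was at or near the limit of detection, between 0.101 and 1.78 CPM over the 12 libraries, with an interaction of -0.75 ± 0.78 (adjusted p 0.6). Summed over the 13 genes, levels were 475 to 490 CPM in rescued and 188 to 203 CPM in knockout libraries at 2 h, of which Tead4 was the largest part in rescued cells.

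Of 21 SRF and MRTF cytoskeletal genes 7 were below 0 and none above (median -0.14), and of 17 YAP and TEAD genes 5 were below 0 and none above (median -0.22). The shares called were 33.3% and 29.4%, beside 13.2% of all genes. Cyr61 and Ctgf belong to both lists, and lost their calls without rescued A or C at 0 h (adjusted p 0.0515 to 0.0535) for Cyr61 and without rescued C at 0 h (adjusted p 0.0677) for Ctgf. Fhl2 stood at 6.38, 6.96 and 6.24 CPM at 0 h and 33.8, 33 and 33.2 CPM at 2 h in rescued cells, and at 9.88, 7.57 and 8.51 CPM and 13.3, 10.9 and 12.4 CPM in knockout cells. Its rescued 2 h libraries lay above all others, and the knockout libraries were also higher at 2 h than at 0 h without overlap. Tpm2, a tropomyosin gene (-1.1 ± 0.18), and Axl, a receptor tyrosine kinase gene (-1.4 ± 0.23), rose in rescued cells and were not called in knockout cells. Myh9, the heavy chain of nonmuscle myosin, rose in both but less without Med24 (-0.68 ± 0.075), as did F3, the tissue factor gene (-1.26 ± 0.12). Vim, the intermediate filament gene that also marks fibroblasts, rose from 23.4, 28.3 and 31.3 to 180.3, 193 and 208 CPM in rescued and from 20.4, 25.7 and 30.1 to 58.6, 73 and 76.2 CPM in knockout cells (-1.35 ± 0.22). Col1a1 and Twist1, other fibroblast markers of the list, were tested and not called, and Col1a2, Col3a1 and Dcn did not pass the filter on low counts.

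In 67 genes the rescued cells went up and the knockout cells down. Adgrg1, an adhesion G protein-coupled receptor gene, stood at 37.4, 31.2 and 35.2 CPM and then 82.3, 90.5 and 92 CPM in rescued cells. In knockout cells it stood at 23.9, 21.6 and 21.6 CPM and then 19.1, 19.1 and 18.4 CPM. The rescued 2 h libraries lay above all others, and the knockout libraries were lower at 2 h than at 0 h without overlap (-1.6 ± 0.13, adjusted p 2.04e-10). Ntrk2, the TrkB receptor gene, moved from 9.76, 8.35 and 8.04 to 12.6, 12.4 and 11.3 CPM with Med24 and from 11.7, 11.1 and 10.8 to 5.04, 4.37 and 5.15 CPM without (-1.68 ± 0.20). Ovol2, a zinc finger factor of epithelial identity, moved from 9.26, 9.88 and 8.77 to 16.1, 15.6 and 15.8 CPM and from 13.9, 13.7 and 14.6 to 9.77, 8.86 and 8.65 CPM (-1.4 ± 0.17). For both genes no 0 h library of a genotype overlapped its 2 h libraries. The sarcomeric gene Mypn (-1.58 ± 0.30), the RNA-binding protein gene Patl2 (-1.5 ± 0.21) and the zinc finger gene Zfp819 (-1.27 ± 0.11) had the same pattern of calls.

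Of the genes described above 0, Sec14l5 (GRCm38 chromosome 16, 5147109 to 5187271, plus strand), a gene of the SEC14-like family, had the largest value. It stood at 2.75, 1.81 and 2.88 CPM in rescued cells at 0 h and at 12.4, 13.4 and 14.8 CPM at 2 h. Knockout cells went from 1.72, 1.72 and 1.82 to 60.9, 67.2 and 67 CPM. The 0 h libraries overlapped, and all knockout 2 h libraries lay above every rescued one (2.78 ± 0.28, adjusted p 9.28e-09). At 8 h the genotypes differed by -0.09, which was not called. Syt2, a synaptotagmin gene of synaptic vesicles, went from 2, 1.67 and 1.44 to 4.9, 3.75 and 4.11 CPM with Med24 and from 1.494, 1.21 and 1.09 to 13.6, 14.9 and 13.7 CPM without it (2.15 ± 0.34). Again the knockout 2 h libraries lay apart from all others.

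Usp35, a deubiquitinase gene (GRCm38 chromosome 7, 97309380 to 97332020, minus strand), rose from 14.6, 12.1 and 11.2 to 52.4, 63.2 and 58.1 CPM in rescued and from 9.88, 13 and 12.8 to 188, 208 and 212 CPM in knockout cells (1.89 ± 0.16, adjusted p 3.68e-10). Its 0 h levels overlapped, and at 2 h all knockout libraries were the higher ones. Kctd21 (GRCm38 chromosome 7, 97332327 to 97350213, plus strand) starts beside it on the other strand and moved from 5.63, 4.87 and 6.36 to 2.89, 4.75 and 3.11 CPM in rescued and from 4.6, 4.95 and 5.47 to 8.4, 8.38 and 8.44 CPM in knockout cells (1.41 ± 0.27). It thus fell with Med24 and rose without. Gab2, whose end lies 434 bases from that of Usp35, had an interaction of 1.17 ± 0.21 and was added after its value was seen. Whether the counting used strand is not given in the sources used here, so that reads of these neighbours cannot be assigned with certainty.

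Mcc rose in both, from 28.7, 29.8 and 28.5 to 42.5, 40.3 and 43.3 CPM and from 16.8, 14 and 19.3 to 61.1, 61.9 and 68.3 CPM (1.41 ± 0.12). It began lower and ended higher in knockout cells, without overlap at either time. Hhip, which encodes a decoy receptor for hedgehog ligands, fell from 32.8, 28.7 and 32.1 to 6.29, 8.88 and 7.77 CPM in rescued cells. In knockout cells it was at 11.4, 9.39 and 10.1 CPM at 0 h and 11.6, 11.3 and 13 CPM at 2 h, already low before 4OHT and not called for a change (2.26 ± 0.19). Duox1, a dual oxidase gene, went from 3.56, 2.02 and 2.8 to 5.65, 6.02 and 7.89 CPM in knockout cells, far below the 34.8 to 45.2 CPM of the rescued libraries (1.47 ± 0.22). Its fall in rescued cells was small, with a log2 change of -0.21 just under the threshold (edgeR adjusted p 0.0489). The interactions of Nptx1 (1.84 ± 0.54), Cxxc4 (1.47 ± 0.50) and Phlda2 (1.55 ± 0.46) had adjusted p values of 0.0203, 0.0469 and 0.0226. Phlda2 overlapped between genotypes at 2 h, with 30.8, 37.66 and 30.85 CPM in rescued and 33.89, 35.31 and 28.49 CPM in knockout cells. Its genotypes differed at 0 h, at low levels of 2.25, 3.06 and 3.12 CPM in rescued and 1.15, 1.01 and 0.608 CPM in knockout cells. Cxxc4 lost its call under 11 of the 21 alternatives, among them the replicate block (1.48, adjusted p 0.051) and the omission of each 2 h library; of 0 h libraries it was lost without knockout A or C or rescued A. Nptx1 lost it without knockout A at 0 h or rescued A or C at 0 h (adjusted p 0.082 to 0.106), and Phlda2 without knockout C at 0 h or rescued B or C at 0 h (adjusted p 0.0574 to 0.081). The values were 1.5 (adjusted p 0.082) for Nptx1 without knockout clone A, 0.91 (adjusted p 0.361) for Cxxc4 without rescued clone A and 1.35 (adjusted p 0.081) for Phlda2 without knockout clone C.

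Naive pluripotency genes had the highest median of the lists described here, 0.42 over 24 tested, with 12 above 0 and 3 below (62.5% called). In rescued cells 16 of them fell, and in knockout cells 14. Before 4OHT, 8 were lower in knockout cells, beside 9.64% of all genes, and 1 was higher, beside 6.81%. Klf4, a Krüppel-like factor of the naive network (GRCm38 chromosome 4, 55527143 to 55532466, minus strand), stood at 168, 201 and 153 CPM in rescued cells at 0 h and at 72.7, 88.6 and 82.6 CPM at 2 h. In knockout cells it stood at 106, 93.9 and 97.3 CPM and then at 113, 126 and 129 CPM. Knockout libraries were the lower ones at 0 h and the higher ones at 2 h, without overlap at either time (1.4 ± 0.12, adjusted p 3.26e-10). Nanog fell in both, from 327, 337 and 326 to 67.9, 87 and 79.1 CPM with Med24 and from 344, 368 and 362 to 163, 125 and 125 CPM without it (0.70 ± 0.11). Its 2 h levels did not overlap between genotypes, and the 0 h difference of 0.12 was not called.

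Prdm14, a PR-domain factor, fell from 24.4, 21.6 and 23.1 to 3.14, 3.13 and 3.66 CPM in rescued and from 17.2, 19 and 18.5 to 6.72, 4.72 and 5.81 CPM in knockout cells (1.11 ± 0.22). The knockout libraries began lower and ended higher. Smaller falls without Med24 were also seen for Klf2 (0.76 ± 0.16), Fgf4 (0.61 ± 0.092), Lifr (0.60 ± 0.073), Esrrb (0.56 ± 0.085) and Tfcp2l1 (0.52 ± 0.081). Nr5a2 fell in rescued and rose in knockout cells (0.77 ± 0.087). Klf5 went the other way, with a rise from 180.5, 179.6 and 185 to 409, 439 and 413 CPM in rescued cells and from 188, 181 and 182 to 274, 268 and 296 CPM in knockout cells (-0.60 ± 0.073). Tbx3, which fell in both genotypes, had an interaction of -0.04 ± 0.09 (adjusted p 0.832). Of 14 general pluripotency genes, 5 were above 0, Foxd3 (1.53 ± 0.20) with the largest value, and 1 was below. Pou5f1 and Sox2, the core factors, were not called. With library size alone, Esrrb, Tfcp2l1, Fgf4, Lifr, Zfp42, Tet2 and Socs3 were no longer called above 0, nor Pecam1 and Bmp4 below 0. Socs3 also lost its call without rescued B at 0 h or knockout C at 2 h (adjusted p 0.0809 to 0.0845), and Bmp4 without knockout A at 0 h, rescued B at 0 h or rescued C at 2 h (adjusted p 0.0603 to 0.124).

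The Nodal and BMP list had members called on both sides, 6 of 15 above 0 and 3 below (60% called), with a median of 0.23. Nodal, the ligand itself, stood at 69, 69.5 and 69.5 CPM in rescued cells at 0 h and at 44.9, 38.2 and 47.5 CPM at 2 h. Knockout levels were 72.4, 68.6 and 63.8 CPM and then 112, 94.2 and 109.8 CPM. The genotypes overlapped at 0 h, moved in opposite directions and did not overlap at 2 h (1.29 ± 0.12, adjusted p 2.17e-09). Lefty2, an inhibitor of Nodal, fell in both, from 46.2, 39.4 and 35.8 to 6.29, 5 and 6.1 CPM and from 60.5, 39.7 and 41.9 to 28.7, 13.6 and 12.5 CPM (1.37 ± 0.30). Knockout clone A at 2 h was its highest knockout library, and without it the value was 0.94 (adjusted p 0.00786). Id1, an inhibitor of bHLH factors induced by BMP, rose in rescued and fell in knockout cells (-1.04 ± 0.12), and Smad7, a feedback inhibitor, did likewise (-0.69 ± 0.081). Id3 rose in knockout cells and was not called in rescued cells (0.73 ± 0.14). The interleukin 1 receptor kinase gene Irak2, of no list, moved as Nodal did, from 32.4, 37.9 and 34.3 to 21.4, 25.8 and 20.3 CPM and from 37.8, 41.9 and 46.3 to 60.3, 64.6 and 65.1 CPM (1.23 ± 0.13).

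Formative and primed epiblast genes were mixed, 4 of 17 below 0 and 3 above (41.2% called). The DNA methyltransferase gene Dnmt3a rose from 68, 63.1 and 59.6 to 304, 300.3 and 322 CPM in rescued and from 68.6, 72.9 and 72.2 to 183, 202 and 192 CPM in knockout cells (-0.85 ± 0.10). Its 2 h levels did not overlap. Zic2 rose more without Med24, from 17.4, 18.8 and 17.6 to 53.7, 64.5 and 63.4 CPM against 19.1, 21.6 and 15.1 to 29.2, 29 and 31.4 CPM (1.07 ± 0.16). Among 16 primitive endoderm genes the basement membrane genes Col4a1 (0.85 ± 0.14), Col4a2 (0.76 ± 0.15) and Lama1 (0.64 ± 0.13) were above 0, with smaller falls in knockout cells, and none was below (18.8% called, beside 13.2% of all genes). Gata4, Gata6 and Sox17, regulators of that lineage, were not called. In the gastrulation list 1 of 10 was above 0, Nodal, and none below. The neural list had 0 of 3 called by edgeR, 2 of them with an unadjusted p under 0.05, and the 2-cell-like list had 0 of 2, with 0 at that unadjusted p. DESeq2 called 0 in both lists.

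**Figure D5:**
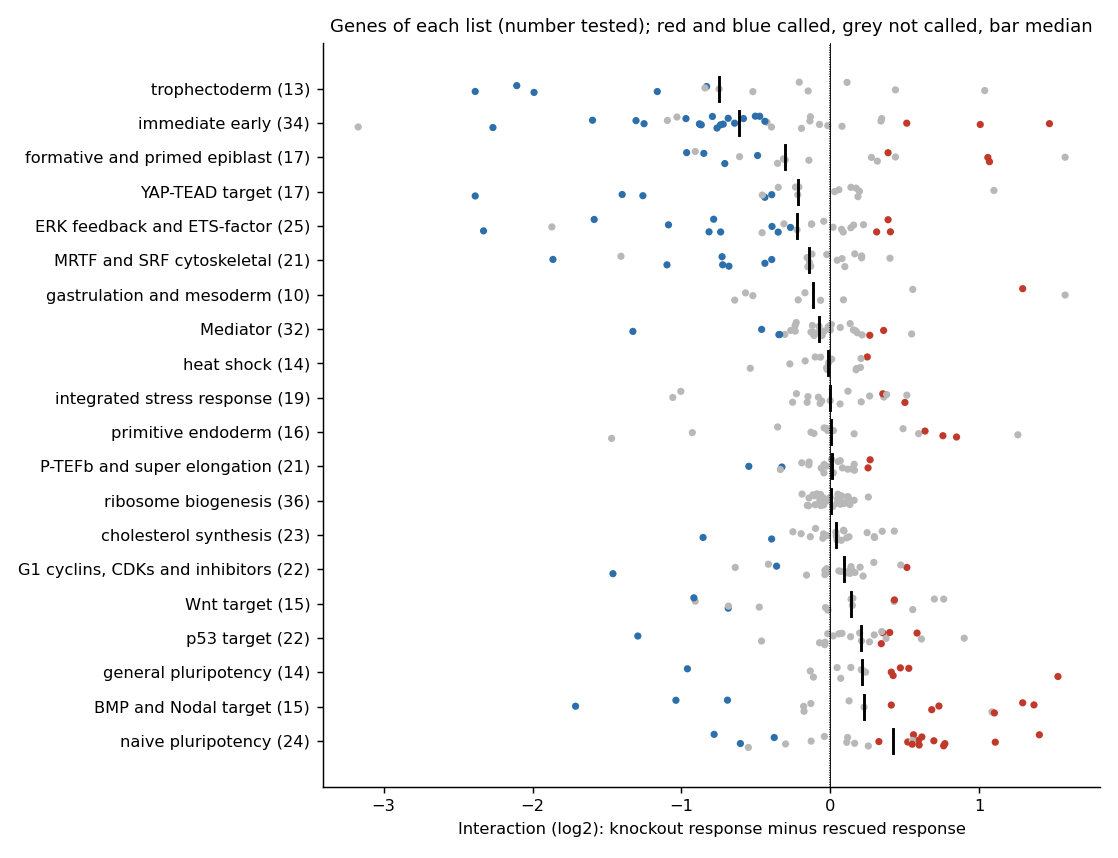
Each point is a gene of a list, placed by its interaction (log2), in blue or red where called below or above 0 and in grey where not, and the black bar is the median of the list. Lists are ordered by median, from trophectoderm at -0.75 to naive pluripotency at 0.42, and the 36 ribosome biogenesis genes lie close to 0 with none called.

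Of 32 Mediator genes tested, the interaction was below 0 in Med24, Med18 (-0.35 ± 0.11), Med22 (-0.46 ± 0.12) and Med28 (-0.34 ± 0.092) and above 0 in Med13 (0.27 ± 0.072) and Cdk19 (0.36 ± 0.092). That is 18.8% called, beside 13.2% of all genes. The share counts Med24 itself, whose interaction follows the reads of the cDNA, and so does not describe the other subunits alone. Med18 lost its call under 9 of 21 alternatives, of single libraries without knockout C at 0 h, rescued C at 0 h, knockout A or C at 2 h or rescued B or C at 2 h (adjusted p 0.0568 to 0.0811), and Med22 lost it without knockout B at 0 h (adjusted p 0.0532). The other tail subunits tested, Med15, Med16, Med23 and Med25, were not called, with values of -0.11, -0.27, 0.13 and -0.11. Genes of ribosome biogenesis rose in both genotypes, 29 of 36 in rescued and 28 of 36 in knockout cells. For the interaction 0 of these 36 passed edgeR's test, 1 had an unadjusted p under 0.05, and 0 passed DESeq2's test. Their median response was 0.31 in rescued and 0.27 in knockout cells, below the 1.87 and 1.53 of the immediate early genes. Cholesterol synthesis genes rose in 18 of 23 with Med24 and 17 of 23 without, and 2 of 23 were below 0, Msmo1 (-0.39 ± 0.093) among them. Heat shock genes had 1 of 14 called (7.14%), Hspa8 (0.25 ± 0.083), a call lost under 12 of 21 alternatives, among them the replicate block (adjusted p 0.0552) and 9 omissions of a single library, without knockout A, B or C at 0 h, rescued A or C at 0 h, knockout A or C at 2 h or rescued A or C at 2 h (adjusted p 0.0533 to 0.114). The integrated stress response had 2 of 19 (10.5%), Cth (0.50 ± 0.13) and Sesn2 (0.35 ± 0.10), the latter lost without rescued A at 0 h, knockout B at 2 h or rescued C at 2 h (adjusted p 0.0593 to 0.0629). The shares called in the cholesterol (8.7%), heat shock and stress lists lay below the 13.2% of all genes.

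Of 22 p53 target genes, 4 were above 0 and Perp was below (-1.29 ± 0.23), which is 22.7% called, beside 13.2% of all genes. Perp at 2 h was highest in clone A among knockout libraries, and its value without that clone was -1.45 (adjusted p 2.36e-05). Of 22 G1 cell cycle genes, the cyclin gene Ccnd2 (-1.46 ± 0.30) and the inhibitor gene Cdkn1b (-0.36 ± 0.097) were below 0 and Cdk6 above (0.51 ± 0.11). These 13.6% called are near the 13.2% of all genes, and Cdkn1b lost its call without knockout B at 2 h (adjusted p 0.0505). The Wnt targets Tcf7 (-0.92 ± 0.13) and Myc were below 0 and Znrf3 above (0.43 ± 0.096), 3 of 15 or 20%. For elongation factors, Aff1 (-0.55 ± 0.083) and Eaf1 (-0.33 ± 0.071) were below 0 and Aff4 (0.27 ± 0.071) and Ccnt2 (0.25 ± 0.07) above, 4 of 21 or 19%.

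Gene span separated the 2 directions. The median span on the genome was 83.8 kb for genes above 0, 22 kb for genes below 0 and 26.0 kb for all genes tested. Of 3183 genes under 10 kb, 1.19% were above 0 and 6.94% below, and of 2204 genes of 100 kb or more, 17.3% were above and 5.63% below. The median interaction went from -0.14 in the shortest class through -0.06 and 0.07 to 0.16 in the longest. The knockout minus rescued difference at 0 h had medians of 0.11 in the shortest and -0.14 in the longest class, against -0.03 and 0.01 at 2 h. The pattern held within a range of levels: between 25 and 100 CPM, 3.05% of genes under 30 kb and 24.7% of genes of 100 kb or more were above 0. All 3 rescued 0 h libraries showed it, with medians of 0.09, 0.15 and 0.10 above the mean of the 12 libraries for the longest genes. With a smooth trend on span taken out of each library, 626 genes were called above 0 and 870 below, of which 537 and 760 were the same genes as before. The counts past 2-fold were then 55 and 253. What set the trend was not tested.

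Under that adjustment the immediate early list had 5 genes above 0, with Jund (0.40 (adjusted p 0.0105)) and Plk3 (0.47 (adjusted p 0.0103)) added, and the Mediator list had 1 above and 1 below, Cdk19 and Med24. The p53 list then had 7 genes above 0. Spry2 (-0.14 (adjusted p 0.323)), Dusp6 (-0.27 (adjusted p 0.137)), Etv1 (0.29 (adjusted p 0.133)) and Rasa2 (0.21 (adjusted p 0.098)) lost their calls. Without the adjustment, Spry2 had also lost its call without knockout C at 0 h, rescued C at 0 h, knockout A at 2 h or rescued B or C at 2 h (adjusted p 0.0574 to 0.115), and Rasa2 without knockout A at 0 h, rescued C at 0 h, knockout B at 2 h or rescued B or C at 2 h (adjusted p 0.0575 to 0.0719). The 15 highest and 15 lowest genes kept theirs.

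Promoter sequences were available from RefSeq (GRCm38.p6) for 10790 of the 14128 genes, as 13827 windows from 250 bases before to 50 after a start. The AP-1 motif TGACTCA, on either strand, was in 9.63% of 966 windows of genes below 0, 2.78% of 971 windows of genes above 0 and 3.85% of all windows. Among genes that rose in rescued cells it was in 9.25% of 746 windows where the interaction was below 0 and in 3.9% of 3768 where it was not. In windows of 60% GC or more it was 9.23% below 0 and 1.73% above, and in windows under 50% GC 9.73% and 6.11%. The ETS motif CCGGAAG was in 13.0% of windows below 0 and 8.55% above 0, beside 15.9% of all windows. The EGR motif GCGGGGGCG was in 6.31% and 7.83%, beside 5.31% of all, the TEAD motif GGAATG in 14.2% and 11.6%, beside 12.3%, the CRE motif TGACGTCA in 2.28% and 3.4%, beside 2.86%, and the CArG box of SRF in 2.38% and 1.54%, beside 1.32%. TATAAA was in 8.28% and 7.52%, beside 7.2%. Windows of 1 gene can overlap and share a match, motifs were read as exact letters, and a match describes the window alone.

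The 250 bases before a start are shown for 4 genes whose interaction was among the lowest of those with TGACTCA there, chosen after their values were seen. Windows of Fhl2 and Usp35, of the genes above, are shown as well. Capitals mark every motif named in the preceding paragraph. They are AP-1 in Emp1 (145 bases before the start), Adgrg1 (141 and 59) and Wnt5b (191), GGAATG (186) and AP-1 (49) in Htatip2, and the CArG box (96) and TATAAA (28) in Fhl2. In Usp35 none of the 7 motifs was found. Emp1, Adgrg1, Htatip2 and Wnt5b each have at least 1 other start, and the 250 bases before those hold none of the 7 motifs. Another start of Fhl2 has a CArG box (31) and no TATAAA. Which start these cells use was not tested. All are from GRCm38.p6 and are written 5′ to 3′ on the strand of the gene.
Emp1, chr6:135362681-135362930, plus strand: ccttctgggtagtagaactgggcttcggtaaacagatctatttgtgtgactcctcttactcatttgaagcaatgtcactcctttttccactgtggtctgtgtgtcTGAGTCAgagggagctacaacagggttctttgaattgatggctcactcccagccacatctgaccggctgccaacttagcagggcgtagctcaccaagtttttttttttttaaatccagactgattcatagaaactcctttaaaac
Adgrg1, chr8:94984149-94984398, plus strand: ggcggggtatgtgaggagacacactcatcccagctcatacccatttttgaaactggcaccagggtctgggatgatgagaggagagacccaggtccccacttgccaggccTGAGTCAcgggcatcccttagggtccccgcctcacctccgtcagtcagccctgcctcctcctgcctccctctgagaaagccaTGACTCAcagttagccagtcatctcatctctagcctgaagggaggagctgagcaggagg
Htatip2, chr7:49759262-49759511, plus strand: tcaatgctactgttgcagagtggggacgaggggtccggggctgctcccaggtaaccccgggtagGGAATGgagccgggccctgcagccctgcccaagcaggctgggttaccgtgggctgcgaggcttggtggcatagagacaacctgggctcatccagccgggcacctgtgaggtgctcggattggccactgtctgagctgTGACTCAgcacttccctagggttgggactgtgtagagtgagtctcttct
Wnt5b, chr6:119544348-119544597, minus strand: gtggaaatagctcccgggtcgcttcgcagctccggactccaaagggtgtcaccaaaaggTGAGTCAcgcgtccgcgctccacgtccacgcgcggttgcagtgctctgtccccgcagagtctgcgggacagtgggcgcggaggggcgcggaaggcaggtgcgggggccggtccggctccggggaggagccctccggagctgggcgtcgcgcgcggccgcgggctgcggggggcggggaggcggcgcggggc
Fhl2, chr1:43196762-43197011, minus strand: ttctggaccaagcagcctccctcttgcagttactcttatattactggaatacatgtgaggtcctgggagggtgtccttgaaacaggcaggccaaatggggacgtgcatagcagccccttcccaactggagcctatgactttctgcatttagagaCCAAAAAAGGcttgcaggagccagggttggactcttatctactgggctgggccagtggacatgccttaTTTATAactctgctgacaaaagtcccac
Usp35, chr7:97332110-97332359, minus strand: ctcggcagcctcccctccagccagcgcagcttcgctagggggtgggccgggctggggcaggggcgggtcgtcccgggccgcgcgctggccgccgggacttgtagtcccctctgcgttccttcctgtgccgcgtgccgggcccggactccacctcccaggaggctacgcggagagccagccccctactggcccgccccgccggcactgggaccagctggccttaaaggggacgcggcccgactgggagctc
The Usp35 window overlaps the window of Kctd21, chr7:97332073-97332322, on the plus strand, so that both genes start from the same short stretch.

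Emp1, a tetraspan membrane protein gene, went from 22.03, 25.5 and 23.1 to 95.2, 92.7 and 99.2 CPM in rescued cells and from 17.6, 14.3 and 14.3 to 21.98, 18.2 and 22.7 CPM in knockout cells. The rescued 2 h libraries lay above all others, and the interaction was -1.59 ± 0.13. Wnt5b, a Wnt ligand gene, went from 18.02, 14.9 and 15 to 70.9, 72.4 and 70.7 CPM and from 16.4, 15.9 and 20.1 to 24.4, 27 and 27.3 CPM (-1.56 ± 0.14). Htatip2 went from 4.51, 1.95 and 2.88 to 27.4, 26.6 and 29 CPM with Med24 and from 4.14, 4.74 and 4.38 to 9.62, 11 and 11.9 CPM without it (-1.83 ± 0.25). In each of them the 2 h libraries of the genotypes did not overlap.

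Pairs of neighbouring genes were counted as close where they lay under 1000 bases apart or overlapped. Of 1182 close pairs that face each other, 233 had at least 1 gene called and 26 had both, all 26 with the same sign. Of 1160 close pairs that start back to back, 177 had at least 1 called and 22 both, 20 of them with the same sign. Of 567 close pairs on the same strand, 90 had at least 1 called and 7 both, 6 with the same sign. Over all genes tested, 13.2% were called, a share of single genes that cannot be set against these counts of pairs. At 1000 bases or more, 664 of 2563 back-to-back, 678 of 2541 facing and 1521 of 5946 same-strand pairs had at least 1 called. Among those with both called, the sign was the same in 42 of 63 back-to-back, 39 of 56 facing and 106 of 149 same-strand pairs. Whether close pairs are called together more often than other pairs was not tested. Examples are Tmem143 and Emp3 (-1.03 and -1.92), Pkp3 and Sigirr (-1.74 and -1.45) and Duox1 and Shf (1.47 and 1.19), all facing pairs chosen after their values were seen. Reads that run past the end of a gene, or from the other strand, cannot be told apart from those of the neighbour here.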

How the data were processed

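The authors deposited raw read counts per gene for all 18 libraries, and the counts were used as deposited. Per the submitters' processing notes, STAR, featureCounts, DESeq and mm10 were used, with versions and the strand setting not given in the sources used here. Counts were fitted with edgeR 4.0.16 (quasi-likelihood test, TMM scaling, filterByExpr) over 6 groups and all 18 libraries, and the interaction, both responses and the 0 h and 8 h differences were taken from that fit. Benjamini-Hochberg adjustment ran over all 14128 genes tested, with a threshold of 0.05, and the procedure was tested on simulated data.

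Med24 was described first, then, among called genes with a mean of at least 5 CPM and without predicted gene models, the 15 highest and 15 lowest interactions. To these were added 6 genes per direction with opposite responses, every member of the Mediator, trophectoderm, naive pluripotency, ERK feedback and immediate early lists, and up to 4 members of each other list by p. The members and lists were chosen with earlier results of these data known. Deviations of libraries with the same clone letter correlated at 0.021 on average (-0.09 to 0.14), so that letters were not taken as pairs. Gene positions came from GENCODE M21 for 13980 of 14128 genes. Promoters were those of RefSeq. Alternatives were another scaling, test, filter, set of libraries, a replicate block, a span trend and the omission of each library. A few genes that this rule takes are not reported here.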

Additional observations from a re-analysis of the deposited data

Results flagged for a closer look

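The response differed between rescued and knockout cells, by edgeR's test of the interaction itself with Benjamini-Hochberg adjustment, in 933 genes above 0 and 933 below 0. Among genes whose responses were called in opposite directions, the 6 with the largest interaction in each direction are given. Interactions below 0, with a rise in rescued and a fall in knockout cells, were -1.68 for Ntrk2, -1.6 for Adgrg1, -1.58 for Mypn, -1.5 for Patl2, -1.4 for Ovol2 and -1.27 for Zfp819. Interactions above 0, with a fall in rescued and a rise in knockout cells, were 1.53 for Foxd3, 1.47 for Duox1, 1.41 for Kctd21, 1.4 for Klf4, 1.29 for Nodal and 1.23 for Irak2. For Duox1 the fall in rescued cells was only -0.21 (log2, edgeR adjusted p 0.0489).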

How the results depend on the processing

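None of the 129 called genes taken by the rule for description changed direction. The direction with more calls differed between alternatives. DESeq2's test gave 926 genes above 0 and 684 below, and removal of the gene span trend gave 626 and 870. Of 92 described genes that were not called, 24 changed sign under an alternative, Cdx2, Tbx3, Btg2 and Srf among them. Scaling by library size alone gave 57 genes above 0 and 532 below, 29 above 0 past 2-fold, 2384 genes higher in rescued and 1732 in knockout cells, and a slope of 1.0 over lower genes; its median interaction was -0.134. An adjusted p under 0.01 left 458 above and 568 below by construction, and a mean of at least 5 CPM left 38 above 0 past 2-fold. The other scalings, tests, filters and library sets gave 885 to 1221 genes above 0 and 684 to 1006 below, apart from the gene span trend (626 and 870). That trend was chosen after seeing the data, as were the 2-fold counts. The cause of these shifts was not tested. With the clone letter as a replicate block, 908 genes were above 0 and 923 below; the best match of a library had its own letter in 7 of 12 cases, a hint from the data and not the design.

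Leaving out each library in turn gave 670 to 995 genes above 0 and 748 to 937 below, and past 2-fold 51 to 61 and 235 to 271. The genes higher numbered 4316 to 4599 in rescued and 4167 to 4498 in knockout cells, and those lower 4485 to 4824 and 4598 to 4996. Slopes were 0.74 to 0.79 over higher and 0.86 to 0.92 over lower genes. Of 129 called genes described, 78 kept the call under all 21 alternatives. Genes with few counts at 0 h, such as Egr3, are limited by depth.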
